A study of Mus musculus with 23 samples.

Results

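Levels of 10 chromatin and RNA-binding genes were followed across mouse mammary cells. They comprise the DNA methylation genes Dnmt1, Dnmt3a, Dnmt3b, Uhrf1 and Hells, and the polycomb gene Ezh2. The others are Hmga1, Hmga2, Igf2bp2 and Igf2bp3, which encode chromatin-bending and RNA-binding proteins. The 10 genes are a named list, matched by symbol without regard to capitals, out of the 24391, 24511 and 24322 genes listed in 3 expression tables. All 10 were found in each table. RNA was measured in 23 libraries of 9 groups, each made from around 2000 sorted cells, as RPKM, a read count scaled by transcript length and library size, so that levels can be compared between genes. The normal table holds C57BL6J cells: fMaSC, the fetal mammary stem cells of embryos at day 18, and 3 cell types of the adult gland, which are basal cells, mature luminal cells and luminal progenitors, with 2 libraries each. The PY230 table holds cells of tumours that PY230, an established mammary tumour line, formed after transplantation into syngeneic adult C57BL6J mice. Its fractions, with 2 libraries each, are basal SOX10 high and the SOX10 high and SOX10 low parts of the luminal cells, and they all descend from 1 line. The third table holds cells of spontaneous tumours of adult FVB mice of the C3-1-TAg line, in which a C3(1) promoter transgene drives the SV40 T antigen, which binds RB and p53. All its libraries are titled basal, and 5 are SOX10 high and 4 SOX10 low. SOX10 is a transcription factor of neural crest and of mammary progenitor cells, and high and low are the levels named in the titles. Libraries of a group are named biological replicates in the series' text. Which animal or tumour each came from is not in the labels, so the p-values measure the spread between libraries. The read depth of the libraries was not given in the sources used here.

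DNA methylation is copied after each round of replication by DNMT1, which UHRF1 brings to hemimethylated sites, and HELLS is a remodeller that opens nucleosomes for this copying. DNMT3A and DNMT3B set new methylation. EZH2 is the main catalytic subunit of polycomb repressive complex 2, which methylates histone H3 at silenced genes. HMGA1 and HMGA2 bend AT-rich DNA. IGF2BP2 and IGF2BP3 bind messenger RNAs. HMGA2 and IGF2BP3 are known as oncofetal because they are high in the embryo, low in most adult tissue and high again in some tumours.

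The SOX10 labels were matched by the RNA. Sox10 ranged from 66.9 to 101 RPKM in the PY230 SOX10 high libraries and was 11 and 13.6 RPKM in the SOX10 low ones. In the C3-1-TAg table it ranged from 91.9 to 164 RPKM in SOX10 high and from 2.10 to 40.9 RPKM in SOX10 low libraries. The adult tissue labels were matched by their markers in the normal table. The summed RPKM of 10 basal markers was 1830 to 3012 in basal cells, 1019 to 1037 in fMaSC and at most 148 in the luminal groups. That of 8 luminal progenitor markers was 4071 to 4701 in luminal progenitors, 993 to 1002 in fMaSC and at most 156 in the others. That of 8 mature luminal markers was 10341 to 10923 in mature luminal cells and 159 to 161 in fMaSC. It was 1297 to 1937 in basal cells and 1278 to 1567 in luminal progenitors. Both fMaSC libraries also held red blood cell markers, with sums of 260 and 333 RPKM against at most 9.40 RPKM in the adult libraries, with 2 of 6 markers at 1 RPKM or more in both. Their summed fibroblast markers were 84.1 and 101 RPKM (7 of 8 at 1 RPKM or more in both), against 7.50 to 59.2 RPKM in adult libraries. Their summed fat cell markers were 211 and 237 RPKM (5 of 7, with Lep at 0), against 66.5 and 233 RPKM in basal and 6.58 to 49.4 RPKM in luminal libraries. The part of these 3 lists in the fMaSC differences was not tested. The 2 adult basal libraries were less alike (Pearson r of levels 0.927 across genes) than the library pairs of the other normal groups (0.979 to 0.991). Among the C3-1-TAg libraries, 2 pairs from opposite groups were alike: SOX10 high replicate 1 and SOX10 low replicate 2 (r of levels 0.979), and SOX10 high replicate 2 and SOX10 low replicate 3 (0.967), where the middle of the 36 pairs was 0.875. The labels do not pair them. SOX10 low replicate 1 of that table held immune transcripts, with a summed level of 10 immune markers of 1733 RPKM, Lyz2 at 631 RPKM and Ptprc at 19.6 RPKM, while no SOX10 high library had a sum above 116 RPKM. The PY230 basal cells held the basal markers (summed 2917 to 3351 RPKM, at most 164 RPKM in the luminal fractions). Of the C3-1-TAg libraries titled basal, the sum was 186 to 1188 RPKM with only 3 of the 10 basal markers at 1 RPKM or more in every library, beside 68.5 to 1743 RPKM for luminal progenitor markers. In sorted bulk cells, fewer cells of a type and less RNA per cell cannot be told apart.

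In the normal glands most of these genes were highest in fMaSC. Differences were tested with limma on log2(RPKM + 1) over all genes that reached 1 RPKM in 2 or more libraries (4 or more in the C3-1-TAg table), and a gene was called when its Benjamini-Hochberg adjusted p over all genes tested was under 0.05. All 10 genes passed the filter in the normal table. Against adult basal cells 6 were called higher in fMaSC and 1 lower, while 60.3% of the 12553 genes tested were called in either direction and 36.9% were higher. Against luminal progenitors 7 were higher and 0 lower, beside 50.6% of all genes called and 35.5% higher. Against mature luminal cells 9 were higher and 0 lower, beside 56.4% called, 41.7% higher and 14.7% lower. The RPKM of the 2 groups did not overlap for 8, 9 and 9 of the members in these comparisons, beside 79.6%, 82.8% and 85.5% of all genes, which is also near the background. The members' median log2 differences were 1.12, 1.79 and 2.11, and those of all genes 0.27, 0.39 and 0.53. A member count of 7 of 10 beside 60.3% is near the background of this table. The members were chosen with earlier results of these data known, so their larger medians are a description only. The 3 comparisons share the fMaSC libraries. After quantile normalization the median of all genes was no more than 0.02 in size, with 5 higher and 1 lower, 6 and 0, and 8 and 0 members called against the 3 adult groups. Calls over all genes, higher then lower, were 4628 and 2941, 4461 and 1888, and 5231 and 1849 as reported, and 3796 and 3688, 3090 and 3043, and 3399 and 3146 after quantile normalization. With median-of-ratios scaling they were 3935 and 3436, 3460 and 2466, and 3794 and 2650. When a library is left out of a pair below, the lone library left is assumed to vary like the other groups.

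**Figure D1:**
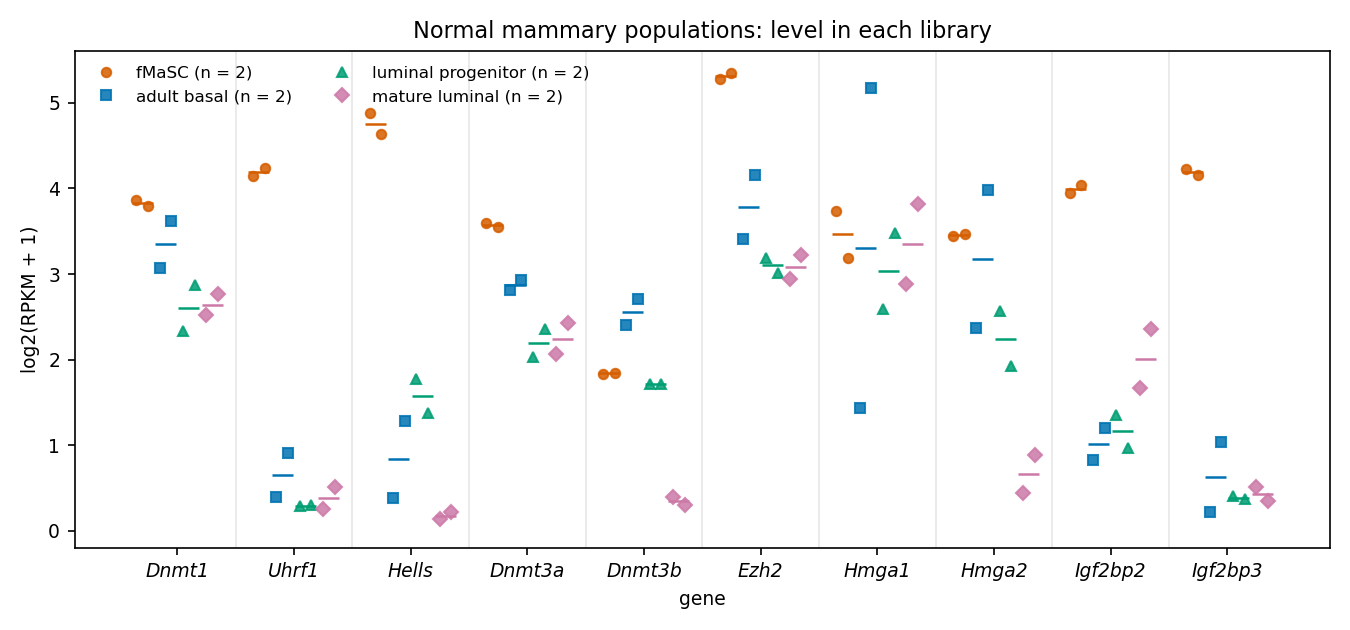
Level of each of the 10 genes in every library of the normal table, as log2(RPKM + 1) (vertical axis), by gene (horizontal axis). Points are libraries and short lines are the means of the 2 libraries of a group. Uhrf1, Hells, Ezh2, Igf2bp2 and Igf2bp3 lie higher in both fMaSC libraries than in any adult library, Dnmt3b does not, and the 2 basal points of Hmga1 lie far apart.

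Of the 3 maintenance genes, Uhrf1 and Hells rose by more than 3 on the log2 scale against each adult group. Uhrf1 was 16.7 and 17.9 RPKM in fMaSC, 0.314 and 0.871 RPKM in basal cells, 0.193 and 0.423 RPKM in mature luminal cells, and 0.217 and 0.231 RPKM in luminal progenitors. Both fMaSC libraries lay far above the 6 adult ones, all under 1 RPKM. The mean RPKM of Uhrf1 was 29.2-fold higher in fMaSC than in basal cells, with a log2 difference of 3.54 ± 0.24 (SE, n = 2 and 2, limma adjusted p = 5.13e-05). The log2 differences of Uhrf1 from luminal progenitors and mature luminal cells were 3.90 (adjusted p = 3.08e-05) and 3.81 (adjusted p = 2.54e-05). On the log2(RPKM + 1) scale, differences from levels under 1 RPKM are understated.

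Hells followed the same order in fMaSC and split the adult luminal groups. It was 28.5 and 23.8 RPKM in fMaSC, 0.305 and 1.44 RPKM in basal cells, 0.0963 and 0.161 RPKM in mature luminal cells, and 2.43 and 1.59 RPKM in luminal progenitors. The libraries of fMaSC did not overlap those of any adult group, and mature luminal cells held the lowest levels. Hells was 30-fold higher by mean RPKM in fMaSC than in basal cells (log2 difference 3.92 ± 0.33 SE, adjusted p = 0.000115), 13.0-fold higher than in luminal progenitors (3.18, adjusted p = 0.000278) and 204-fold higher than in mature luminal cells (4.58, adjusted p = 4.41e-05). Between the adult luminal groups Hells was lower in mature luminal cells by 1.40 on the log2 scale, at -1.40 ± 0.33 SE with adjusted p = 0.0246. That last call was lost when any 1 of its 4 libraries was left out, with adjusted p of 0.138 without luminal progenitor replicate 1, 0.0645 without replicate 2, 0.121 without mature luminal replicate 1 and 0.114 without replicate 2.

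Dnmt1, the maintenance methyltransferase itself, differed far less than its partners. It was 13.5 and 12.9 RPKM in fMaSC, 7.40 and 11.3 RPKM in basal cells, 4.74 and 5.79 RPKM in mature luminal cells, and 4.03 and 6.31 RPKM in luminal progenitors. The fMaSC libraries were the 2 highest, both basal libraries lay above the luminal ones, and the luminal groups overlapped. Basal cells were not called against luminal progenitors or mature luminal cells (limma adjusted p = 0.0816 and 0.0787). Dnmt1 was higher in fMaSC than in luminal progenitors by 1.23 ± 0.29 (log2, SE, adjusted p = 0.00978) and than in mature luminal cells by 1.19 (adjusted p = 0.00987). Against basal cells the difference was 0.48 with adjusted p = 0.181. The call against luminal progenitors was lost without fMaSC replicate 1 (adjusted p = 0.077), fMaSC replicate 2 (0.0668) or luminal progenitor replicate 1 (0.0616) and after quantile normalization (0.0832). Against mature luminal cells it was lost without fMaSC replicate 1 (adjusted p = 0.0741), fMaSC replicate 2 (0.0645) or mature luminal replicate 1 (0.0615), after quantile normalization (0.125) and after median-of-ratios scaling (0.0682).

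Letters of the E2F type were found before 1 listed start of each of the 3 maintenance genes. In the RefSeq promoter table (GRCm38.p6) the 10 genes have 16 windows of the 250 bases before an annotated start. The E2F-type letters TTTGGCGC, TTTCCCGC, TTTCGCGC or TTTGCCGC, searched on both strands, were found in 3 of these windows, 1 each of Dnmt1, Uhrf1 and Hells, and in 1.88% of the 32526 windows of all genes. The other listed windows of Dnmt1 and Uhrf1 held no match. The matching windows of Dnmt1, Uhrf1 and Hells held 26, 30 and 28 CpG sites (C followed by G). The median of all windows was 6. Each of the searched spellings itself contains CG, and windows of like CpG content were not compared. The share of 1.88% is therefore not a background of like composition, and no enrichment is read from it. E2F factors are known regulators of genes of the replication phase. The 30 bases around each match are shown 5′ to 3′ in the direction of the gene because the 3 genes belong to 1 process, with the match in capitals.
Dnmt1 start 3: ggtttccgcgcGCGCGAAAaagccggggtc
Uhrf1 start 2: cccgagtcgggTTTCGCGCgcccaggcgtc
Hells start 1: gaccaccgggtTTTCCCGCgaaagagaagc
The Dnmt1 bases lie at chr9:20952824-20952853 on the minus strand, 230 to 201 bases before the listed start 3, inside an annotated exon and UTR of another Dnmt1 transcript. The Uhrf1 bases lie at chr17:56304117-56304146 on the plus strand, 196 to 167 bases before the listed start 2, in an intron of transcripts that begin upstream. The Hells bases lie at chr19:38930917-38930946 on the plus strand, 73 to 44 bases before the start, in the UTR of a transcript that begins earlier. In the Dnmt1 window the match is on the opposite strand to the gene. CCAAT, the NF-Y letters, was found on either strand in windows of Dnmt1, Uhrf1, Ezh2 and Igf2bp3 and in 33.8% of all windows, and TTTGAA or TTCGAA in windows of Dnmt1 and Dnmt3b and in 17.0% of all windows. A match describes letters and shows no binding, and the files hold no binding data that were used here.

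The de novo methyltransferases went apart. Dnmt3a was 11.1 and 10.7 RPKM in fMaSC, 6.0 and 6.61 RPKM in basal cells, 3.19 and 4.36 RPKM in mature luminal cells, and 3.09 and 4.13 RPKM in luminal progenitors. Its fMaSC libraries lay above all adult ones and its basal libraries above all luminal ones. The differences of basal cells from luminal progenitors and mature luminal cells were not called (limma adjusted p = 0.0645 and 0.0649). Those groups did not overlap for 63% and 71.2% of all genes. Dnmt3a was higher in fMaSC than in luminal progenitors by 1.38 ± 0.24 (log2, SE, adjusted p = 0.00266) and than in mature luminal cells by 1.33 (adjusted p = 0.00258). Against basal cells it was called at 0.71 with adjusted p = 0.0356, a call lost without basal replicate 1 (adjusted p = 0.063), fMaSC replicate 1 (0.153) or fMaSC replicate 2 (0.132), and after quantile normalization (0.242) or median-of-ratios scaling (0.138).

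Of the 10 members, only Dnmt3b was called lower in fMaSC, against basal cells. It was 2.56 and 2.60 RPKM in fMaSC, 4.30 and 5.55 RPKM in basal cells, 0.310 and 0.237 RPKM in mature luminal cells, and 2.28 and 2.28 RPKM in luminal progenitors. Basal cells held the highest level and mature luminal cells the lowest. No 2 of the 4 groups overlapped, which held for 63% to 85.5% of all genes in the comparisons of these groups. The difference of 0.12 between fMaSC and luminal progenitors was not called (limma adjusted p = 0.647). Dnmt3b was higher in basal than in mature luminal cells by 2.21 ± 0.21 (log2, SE, adjusted p = 0.000274), higher in fMaSC than in mature luminal cells by 1.49 (adjusted p = 0.000785), and lower in mature luminal cells than in luminal progenitors at -1.37 (adjusted p = 0.00479). Against basal cells, fMaSC held less Dnmt3b, at -0.72 (adjusted p = 0.0192), which was lost without fMaSC replicate 1 (adjusted p = 0.0806) or replicate 2 (0.0747). Between basal cells and luminal progenitors it was higher in basal by 0.84 (adjusted p = 0.0186), which was lost without luminal progenitor replicate 1 (0.0708) or replicate 2 (0.0722) and after quantile normalization (0.0517). The ratio of Dnmt3a to Dnmt3b was 4.35 and 4.11 in fMaSC, 1.39 and 1.19 in basal cells, 1.35 and 1.81 in the luminal progenitors and 10.3 and 18.4 in the mature luminal cells.

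Ezh2, the polycomb methyltransferase of dividing cells, rose in fMaSC against each adult group. It was 37.7 and 39.8 RPKM in fMaSC, 9.64 and 16.8 RPKM in basal cells, 6.66 and 8.32 RPKM in mature luminal cells, and 8.14 and 7.06 RPKM in luminal progenitors. The fMaSC libraries were far above the rest, and the 2 luminal groups overlapped. By mean RPKM Ezh2 was 2.93-fold higher in fMaSC than in basal cells (log2 difference 1.53 ± 0.28 SE, adjusted p = 0.0027), 5.10-fold higher than in luminal progenitors (2.21, adjusted p = 0.000636) and 5.17-fold higher than in mature luminal cells (2.23, adjusted p = 0.000485). Ezh1, its paralog in resting cells, moved the other way, so that the ratio of Ezh2 to Ezh1 was 14.6 and 10.7 in fMaSC, 0.901 and 1.29 in basal cells, 0.627 and 0.593 in the luminal progenitors and 0.326 and 0.412 in the mature luminal cells. Ezh1 was called lower in fMaSC than in luminal progenitors at -1.71 (adjusted p = 0.000781) and than in mature luminal cells at -2.37 (adjusted p = 0.000142).

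The HMGA genes did not share the pattern. Hmga2 was 9.85 and 10.1 RPKM in fMaSC, 4.15 and 14.8 RPKM in basal cells, 0.353 and 0.841 RPKM in mature luminal cells, and 4.92 and 2.79 RPKM in luminal progenitors. The basal libraries spanned the fMaSC ones and only mature luminal cells lay under 1 RPKM. Hmga2 was higher than in mature luminal cells by 2.80 ± 0.51 (log2, SE, adjusted p = 0.00281) in fMaSC and by 2.51 (adjusted p = 0.00626) in basal cells, and its differences of 1.21 between fMaSC and luminal progenitors (adjusted p = 0.084) and of 0.28 between fMaSC and basal cells (adjusted p = 0.653) were not called. Without basal replicate 2, Hmga2 was called higher in fMaSC than in basal cells by 1.09 (adjusted p = 0.0266).

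Hmga1 was not called in any comparison of the normal groups. It was 12.3 and 8.14 RPKM in fMaSC, 1.70 and 35.1 RPKM in basal cells, 6.41 and 13.1 RPKM in mature luminal cells, and 5.03 and 10.1 RPKM in luminal progenitors. The 2 basal libraries held both the lowest and the highest of the 8 values. The level of Hmga1 in basal cells is therefore uncertain. The log2 difference of Hmga1 between fMaSC and basal cells was 0.16 ± 1.06 (SE), and it was 2.03 without basal replicate 2 and -1.71 without basal replicate 1, past the threshold both ways (adjusted p = 0.0131 and 0.0229).

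The RNA-binding genes Igf2bp3 and Igf2bp2 were higher in fMaSC against each adult group. Igf2bp3 was 17.7 and 16.9 RPKM in fMaSC, 0.166 and 1.05 RPKM in basal cells, 0.428 and 0.275 RPKM in mature luminal cells, and 0.320 and 0.288 RPKM in luminal progenitors. Only the fMaSC libraries stood above the others, which overlapped. Igf2bp3 was 28.4-fold higher by mean RPKM in fMaSC than in basal cells (log2 difference 3.56 ± 0.28 SE, adjusted p = 9.41e-05), and its log2 differences from the luminal groups were 3.81 and 3.76 (adjusted p = 7.03e-05 and 5.41e-05).

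Igf2bp2 was next highest in mature luminal cells. Its levels were 14.5 and 15.4 RPKM in fMaSC, 0.774 and 1.3 RPKM in basal cells, 2.18 and 4.11 RPKM in mature luminal cells, and 1.55 and 0.960 RPKM in luminal progenitors. Mature luminal cells lay above the other adult groups without overlap, and fMaSC above all. The log2 difference of 0.85 between mature luminal cells and luminal progenitors was not called (limma adjusted p = 0.0875). Those 2 groups did not overlap for 66.3% of all genes. Igf2bp2 was higher in fMaSC than in basal cells by 2.98 ± 0.30 (log2, SE, adjusted p = 0.000221), than in luminal progenitors by 2.83 (adjusted p = 0.000312) and than in mature luminal cells by 1.98 (adjusted p = 0.00124). It was lower in basal than in mature luminal cells at -1.0 (adjusted p = 0.0292), a call lost without basal replicate 1 (adjusted p = 0.0761) or mature luminal replicate 2 (0.167). The third gene of the family, Igf2bp1, was 5.17 and 5.73 RPKM in fMaSC and at most 0.254 RPKM in the adult libraries.

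Among the adult groups few members were called. Basal cells against luminal progenitors gave 1 of 10 higher (Dnmt3b) and 0 lower, beside 35.5% of all genes called (21% higher, 14.5% lower). Basal against mature luminal cells gave 2 higher (Dnmt3b and Hmga2) and 1 lower (Igf2bp2), beside 48.6% (28.8% higher, 19.8% lower). Mature luminal cells against luminal progenitors gave 0 higher and 2 lower (Dnmt3b and Hells), beside 22.1% (8.63% higher, 13.4% lower). Groups did not overlap for 6, 7 and 4 members, beside 63%, 71.2% and 66.3% of all genes. Each of these counts is below or near its background. These counts rest on the 2 unlike basal libraries. With 1 of them left out, the members called changed, and so did the calls over all genes. Against luminal progenitors, the log2 difference without basal replicate 2 or without replicate 1 was 0.47 or 1.02 for Dnmt1. In the same order it was 0.31 or 1.05 for Ezh2, 0.12 or 1.74 for Hmga2 and -0.16 or 0.65 for Igf2bp3. For Hmga1 it was -1.60 or 2.14, and for Hells -1.19 or -0.29. Against mature luminal cells it was 0.43 or 0.98 for Dnmt1, 0.33 or 1.08 for Ezh2 and 0.21 or 1.11 for Hells. Hmga1 stood there at -1.92 or 1.82. The sum of 7 fat cell markers was 66.5 RPKM in 1 basal library and 233 RPKM in the other, with 1 of 7 at 1 RPKM or more in both and Plin1, Lep and Retn at 0. That of 10 immune markers was 14.5 and 80.1 RPKM, with 1 of 10 at 1 RPKM or more in both and Cd3e at 0. Their part in the differences between the basal libraries was not tested.

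The levels were also set beside DNA replication. A list of 25 replication and proliferation genes was higher in fMaSC against each adult group, with 25 of 25 called and median log2 differences of 3.76, 3.77 and 3.97. The mean log2(RPKM + 1) of this list was 5.46 in fMaSC, 1.91 in basal cells, 1.76 in the luminal progenitors and 1.51 in the mature luminal cells. Relative to it, the level of Uhrf1 was -1.27 in fMaSC, -1.26 in basal cells, -1.47 in the luminal progenitors and -1.13 in the mature luminal cells. Igf2bp3 was at -1.27 in fMaSC and between -1.38 and -1.08 in the adult groups. All adult libraries of Uhrf1 and most of Igf2bp3 were under 1 RPKM, where log2(RPKM + 1) is compressed toward 0, so nothing is read from these like values. Dnmt1 lay at -1.63 in fMaSC and between 0.84 and 1.44 in the adult groups, Ezh2 at -0.15 and between 1.34 and 1.88, and Dnmt3a at -1.89 and between 0.43 and 0.96. Igf2bp2 lay at -1.47 in fMaSC and between -0.89 and 0.50 in the adult groups. Dnmt1, Dnmt3a, Ezh2 and Igf2bp2 were thus higher in fMaSC by mean RPKM and lower relative to replication genes. Dnmt3b, Hmga1 and Hmga2 were also lower relative to them. Any gene that rose less than this list falls relative to it, and the median differences of all genes were only 0.27, 0.39 and 0.53. Nothing particular to the members is therefore read from these lower relative levels. How far the replication genes' level bears on the members' differences was not tested.

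**Figure D2:**
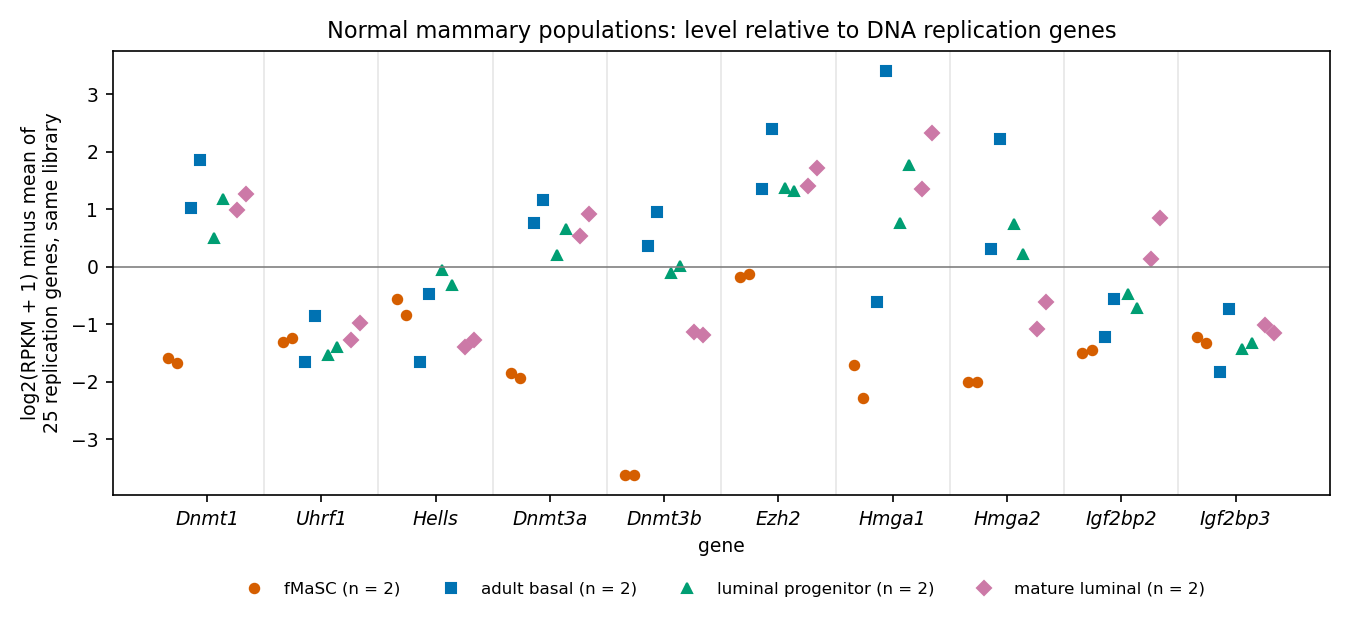
Level of each of the 10 genes minus the mean level of 25 DNA replication and proliferation genes of the same library, both as log2(RPKM + 1) (vertical axis), in the normal table, with 1 point per library. The fMaSC points of Dnmt1, Dnmt3a, Dnmt3b, Ezh2, Hmga1, Hmga2 and Igf2bp2 lie below all adult points. Those of Hells, Igf2bp3 and Uhrf1 lie among them, and the adult levels of Uhrf1 are compressed near 0 RPKM.

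Lists of related genes moved in both directions in fMaSC. Of 18 tested heterochromatin and nucleosome remodelling genes, 11 were higher and 1 lower against basal cells (median log2 difference 1.38), 14 and 0 against luminal progenitors (1.55) and 16 and 0 against mature luminal cells (2.24), where the medians of all genes were 0.27, 0.39 and 0.53. The chromatin protein gene Hmgn2 was 699 ± 64.8 RPKM in fMaSC and 20.6 ± 12.0 RPKM in basal cells (SD, n = 2 each, log2 difference 5.13, adjusted p = 7.88e-05). Chaf1b, a subunit of the factor that loads nucleosomes on new DNA, was higher than in luminal progenitors by 4.07 (adjusted p = 8.45e-05). Of 10 subunit genes of polycomb repressive complex 2, 3 were higher and 4 lower against basal cells, 3 and 3 against luminal progenitors and 4 and 2 against mature luminal cells. The histone-binding subunit Rbbp7 was higher than in basal cells by 1.55 (adjusted p = 0.000594), while the accessory subunits Aebp2 and Phf1 were lower, at -2.88 (adjusted p = 0.000246) and -2.41 (adjusted p = 0.000159). Polycomb repressive complex 1 genes were 4 higher and 5 lower, 4 and 2, and 6 and 2 of 19, with Cbx2 higher than in luminal progenitors by 1.43 (adjusted p = 0.00302) and Cbx7 lower at -1.55 (adjusted p = 0.00586). Genes of enzymes that oppose polycomb were 0 higher and 4 lower of 6 against basal cells (beside 23.4% of all genes lower), 0 and 0 against luminal progenitors and 2 and 0 against mature luminal cells. Among the 4 was Kdm6b, a demethylase of the EZH2 mark, at -1.40 (adjusted p = 0.00374).

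Other DNA methylation genes were also divided. Of 20 tested, fMaSC showed 7 higher and 8 lower against basal cells, 7 and 3 against luminal progenitors and 7 and 5 against mature luminal cells. Cdca7l, a relative of the HELLS partner Cdca7, was higher than in basal cells by 3.38 (adjusted p = 0.00571), and Cdca7 was higher than in mature luminal cells by 3.59 (adjusted p = 5.76e-05). Tet2, whose product oxidizes methylated cytosine, was lower than in basal cells at -1.86 (adjusted p = 0.00238). Of 13 tested genes of the oncofetal and let-7 list, 4 were higher against each adult group, and 7, 0 and 1 were lower. H19, an imprinted fetal RNA, was 129 and 121 RPKM in fMaSC and at most 0.923 RPKM in any adult library (log2 difference from basal cells 6.55, adjusted p = 2.7e-05).

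In the PY230 tumour fractions Dnmt1, Uhrf1, Ezh2 and Igf2bp2 were lower in basal than in both luminal fractions, and Igf2bp2 was also lower in luminal SOX10 high than in luminal SOX10 low cells. Hmga2 and Igf2bp3 did not pass the filter, so 8 of the 10 genes were tested among 13136. Hmga2 was listed at 0 in both luminal SOX10 low libraries and 1 SOX10 high library, with a highest value of 0.090 RPKM, and Igf2bp3 ranged from 0.092 to 0.423 RPKM. Comparing basal with luminal SOX10 high cells, 4 members were lower and 0 higher, beside 42% of all genes called (13.8% higher, 28.2% lower). Comparing basal with luminal SOX10 low cells, 5 were lower and 0 higher, beside 55.2% called (21.8% higher, 33.4% lower). In luminal cells SOX10 high against low gave 1 higher and 2 lower, beside 22.6% called (12.6% higher, 10% lower). Groups did not overlap for 8, 7 and 6 of the 8 members in this order, beside 72.2%, 82% and 67.8% of all genes. Over all genes 1814 were higher and 3699 lower in basal than in luminal SOX10 high cells, and 2865 and 4389 against luminal SOX10 low cells. With median-of-ratios scaling these were 2533 and 2289, and 3795 and 3304, and with quantile normalization 2361 and 2794, and 3358 and 3852. The 3 comparisons share libraries in pairs.

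**Figure D3:**
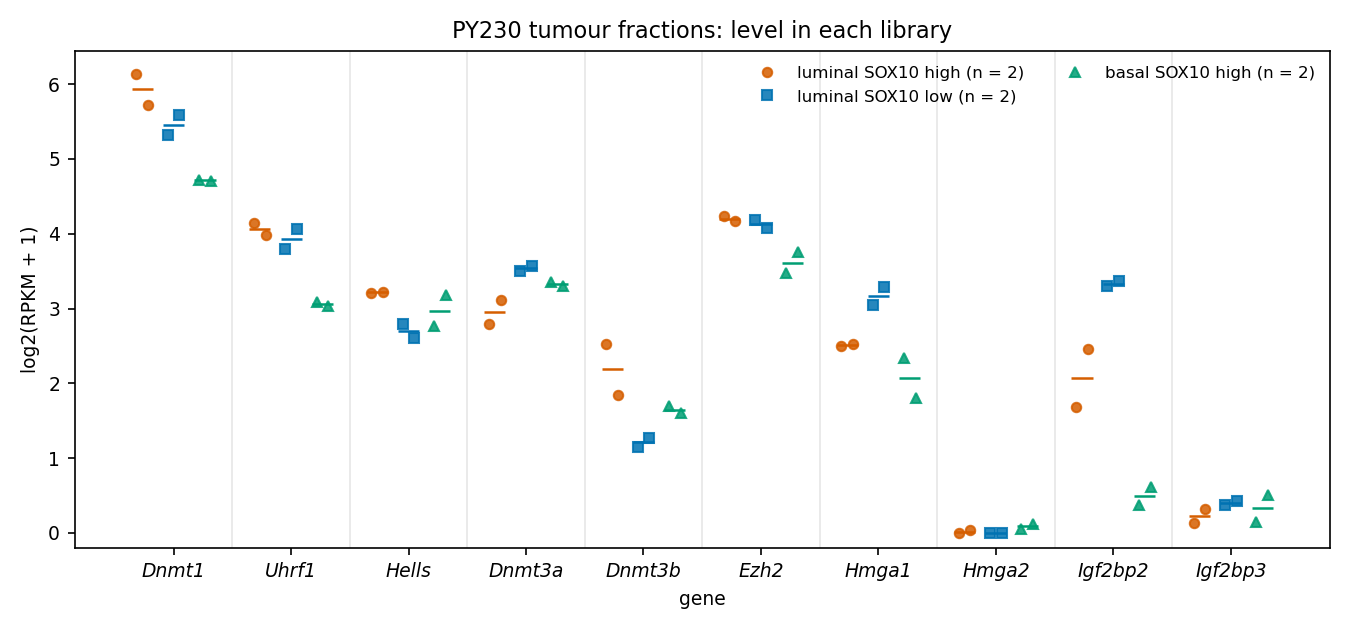
Level of each of the 10 genes in every library of the PY230 table, as log2(RPKM + 1) (vertical axis), by gene (horizontal axis). Points are libraries and short lines are means of 2 libraries. Igf2bp2 rises from basal SOX10 high over luminal SOX10 high to luminal SOX10 low without overlap, and Hmga2 and Igf2bp3 lie near 0.

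Dnmt1 was abundant in these tumour cells. It was 69.6 and 51.8 RPKM in luminal SOX10 high, 38.9 and 46.9 RPKM in luminal SOX10 low and 25.3 and 25.2 RPKM in basal SOX10 high cells. The 3 fractions did not overlap, and the basal one was lowest. Dnmt1 was lower in basal than in luminal SOX10 high cells at -1.22 ± 0.18 (log2, SE, adjusted p = 0.00225) and than in luminal SOX10 low cells at -0.74 (adjusted p = 0.0111). The latter call was lost without basal replicate 1 (adjusted p = 0.056), basal replicate 2 (0.0564) or luminal SOX10 low replicate 2 (0.0834). Between the luminal fractions the difference of 0.48 was not called (adjusted p = 0.0941), and it was called without luminal SOX10 high replicate 2 (0.69, adjusted p = 0.0249) and after quantile normalization (0.53, adjusted p = 0.0373).

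Uhrf1 was 16.6 and 14.8 RPKM in luminal SOX10 high, 12.8 and 15.8 RPKM in luminal SOX10 low and 7.52 and 7.22 RPKM in basal cells. The luminal fractions overlapped and the basal libraries lay below them. Uhrf1 was lower in basal cells at -0.99 ± 0.15 (log2, SE, adjusted p = 0.0026) against luminal SOX10 high and -0.86 (adjusted p = 0.0029) against luminal SOX10 low. Hells, at 8.24 and 8.34, 5.91 and 5.09, and 5.78 and 8.09 RPKM in the same order of fractions, was not called in any of the 3 comparisons.

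Ezh2 was 17.8 and 17.0 RPKM in luminal SOX10 high, 17.2 and 15.8 RPKM in luminal SOX10 low and 10.1 and 12.5 RPKM in basal cells. Both basal libraries were the lowest. Ezh2 was lower in basal than in luminal SOX10 high cells at -0.59 ± 0.14 (log2, SE, adjusted p = 0.0175) and than in luminal SOX10 low cells at -0.52 (adjusted p = 0.0207). In this table the median of all genes was -0.21 and -0.16 in the 2 basal comparisons, and both Ezh2 calls were lost after quantile normalization (adjusted p = 0.0663 and 0.0824) and median-of-ratios scaling (0.0816 and 0.102). The first was also lost without basal replicate 1 (adjusted p = 0.0907) or luminal SOX10 high replicate 1 (0.0548), and the second without basal replicate 1 (0.106), luminal SOX10 low replicate 1 (0.13) or replicate 2 (0.0734). The ratio of Ezh2 to Ezh1 lay between 0.910 and 1.73 in the 6 libraries.

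The de novo methyltransferases moved in opposite directions between the luminal fractions. Dnmt3a was 5.92 and 7.65 RPKM in luminal SOX10 high, 10.4 and 10.9 RPKM in luminal SOX10 low and 9.25 and 8.85 RPKM in basal cells. Dnmt3b was 4.78 and 2.61 RPKM, 1.22 and 1.42 RPKM and 2.23 and 2.03 RPKM in the same order. SOX10 high luminal cells were lowest for Dnmt3a and highest for Dnmt3b. In luminal SOX10 high against low cells Dnmt3a was lower at -0.59 ± 0.15 (log2, SE, adjusted p = 0.0385) and Dnmt3b higher by 0.98 ± 0.24 (adjusted p = 0.033). The ratio of Dnmt3a to Dnmt3b was 1.24 and 2.93 in luminal SOX10 high, 8.50 and 7.68 in luminal SOX10 low and 4.15 and 4.36 in basal cells. These 2 calls were lost without luminal SOX10 high replicate 1 (adjusted p = 0.124 for Dnmt3a and 0.0992 for Dnmt3b), luminal SOX10 low replicate 1 (0.144 and 0.134) or replicate 2 (0.197 and 0.12) and with no filter on low values (0.0651 and 0.0744). After quantile normalization (0.56, adjusted p = 0.0273) and median-of-ratios scaling (0.60, adjusted p = 0.0295), Dnmt3a was called higher in basal than in luminal SOX10 high cells, a difference of 0.38 with adjusted p = 0.091 as reported. Without luminal SOX10 high replicate 2, Dnmt3a (adjusted p = 0.0312) and Dnmt3b (0.0157) were both called in that comparison.

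Igf2bp2 had the largest log2 difference of the 8 members tested in each of the 3 comparisons of these fractions. It was 8.88 and 9.29 RPKM in luminal SOX10 low, 2.21 and 4.49 RPKM in luminal SOX10 high and 0.295 and 0.526 RPKM in basal SOX10 high cells. No 2 fractions overlapped. Igf2bp2 was 22.1-fold lower by mean RPKM in basal than in luminal SOX10 low cells (log2 difference -2.84 ± 0.26 SE, adjusted p = 0.000221), and lower in basal than in luminal SOX10 high cells at -1.58 (adjusted p = 0.00409). It was lower in luminal SOX10 high than low cells at -1.26 (adjusted p = 0.0218), a call lost without luminal SOX10 high replicate 1 (adjusted p = 0.0591), luminal SOX10 low replicate 1 (0.0808) or replicate 2 (0.105) and with no filter on low values (0.0547). The summed level of pan-epithelial markers followed the same order, at 10560 to 10950 RPKM in luminal SOX10 low, 4511 to 5713 RPKM in luminal SOX10 high and 450 to 638 RPKM in basal cells, with all 8 markers at 1 RPKM or more in every library, and its part in the Igf2bp2 differences was not tested.

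Hmga1 was 4.66 and 4.74 RPKM in luminal SOX10 high, 7.24 and 8.74 RPKM in luminal SOX10 low and 4.08 and 2.50 RPKM in basal cells. Luminal SOX10 low cells were highest and the 3 fractions did not overlap. Hmga1 was lower in basal than in luminal SOX10 low cells at -1.09 ± 0.21 (log2, SE, adjusted p = 0.00471). The other differences of Hmga1 were not called.

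In PY230 cells the replication list was lower in basal cells too, with 17 of 25 genes called lower against luminal SOX10 high and 11 against luminal SOX10 low, and 3 called higher in luminal SOX10 high than low. Relative to that list's mean level, Ezh2 lay at 0.07 in basal, -0.07 in luminal SOX10 high and 0.09 in luminal SOX10 low cells, and Uhrf1 at -0.48, -0.22 and -0.11. Dnmt1 lay at 1.17, 1.66 and 1.41 and Igf2bp2 at -3.06, -2.21 and -0.70. Ezh2 and the replication genes thus kept nearly the same distance in the 3 fractions, and Igf2bp2 did not. The summed fibroblast markers (193 to 333 RPKM in basal, 104 to 191 and 65.2 to 132 RPKM in luminal SOX10 high and low cells, 6 to 8 of 8 at 1 RPKM or more in every library of a fraction) also differed between the fractions. Fat cell markers summed to 58.2 to 76.6 RPKM in basal and 1.49 to 10.4 RPKM in luminal cells (1 of 7 at 1 RPKM or more in every library). Immune markers summed to 57.8 to 77.1 RPKM in basal, 59.6 to 85.8 RPKM in luminal SOX10 high and 22.7 to 37.0 RPKM in luminal SOX10 low cells (5 of 10 at 1 RPKM or more in every library of a fraction). The part of the replication genes and of these 3 lists in the members' differences was not tested. Of 10 polycomb repressive complex 2 genes, 1 was higher and 3 lower in basal than in luminal SOX10 high cells, and 1 and 7 against luminal SOX10 low cells, with Phf19 lower at -1.48 (adjusted p = 0.000667) and Aebp2 higher by 1.0 (adjusted p = 0.00116) in the latter. Of 21 DNA methylation genes, 4 and 5 were higher and lower against luminal SOX10 high and 6 and 6 against luminal SOX10 low. Tet1, a methylcytosine oxidase, was higher in basal cells by 0.98 (adjusted p = 0.00607) and 1.3 (adjusted p = 0.00117), and Zfp57, which guards imprinted methylation, by 2.32 (adjusted p = 0.00131) and 1.47 (adjusted p = 0.00525).

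In the C3-1-TAg tumours no member was called between SOX10 high and low cells. Igf2bp3 did not pass the filter, so 9 of the 10 genes were tested among 11948. The limma fit called 0 of 9 members and 0.0418% of all genes, which are 5 genes. At an unadjusted p under 0.05, 1 member (Igf2bp2) and 365 genes passed. No other tool was run on this comparison, and each of the alternatives to this fit also called 0 members. The RPKM of the 2 groups overlapped for all 10 members, and 1.06% of all genes had groups that did not overlap.

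**Figure D4:**
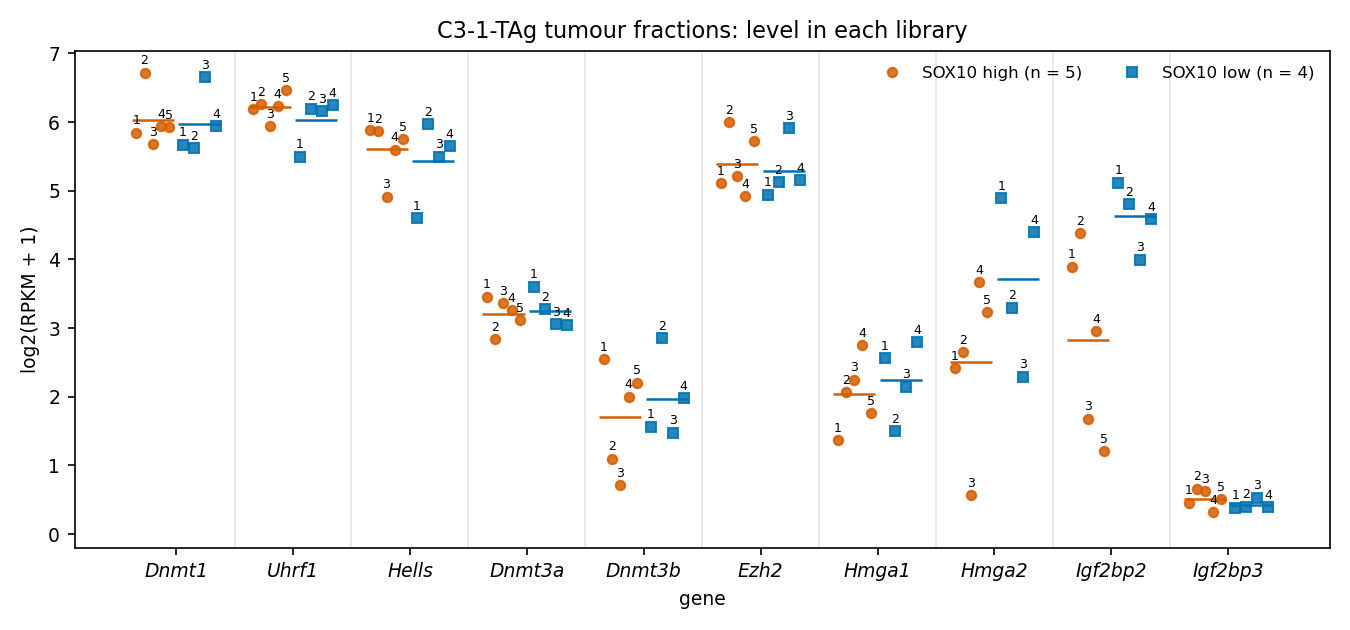
Level of each of the 10 genes in every library of the C3-1-TAg table, as log2(RPKM + 1) (vertical axis), by gene (horizontal axis). Numbers are the replicate numbers and short lines are group means. All 10 genes overlap between SOX10 high and SOX10 low libraries, and 4 of the 5 SOX10 high libraries lie below all SOX10 low ones for Igf2bp2.

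Igf2bp2 and Hmga2 had the largest log2 differences between the groups, and neither was called. Igf2bp2 was 13.9, 19.8, 2.21, 6.75 and 1.3 RPKM in SOX10 high and 33.7, 27.0, 15.0 and 23.0 RPKM in SOX10 low libraries. SOX10 high replicates 1, 3, 4 and 5 lay below every SOX10 low library, and replicate 2 exceeded 1 of them. The log2 difference was -1.80 ± 0.61 (SE, n = 5 and 4) with limma adjusted p = 1 and an unadjusted p under 0.05. Without SOX10 low replicate 1, which held immune transcripts (no immune marker was at 0 in all libraries of a group), it was -1.64, and the part of those transcripts was not tested further. In the 2 pairs of like libraries Igf2bp2 was 13.9 RPKM in SOX10 high replicate 1 beside 27.0 RPKM in SOX10 low replicate 2, and 19.8 RPKM in SOX10 high replicate 2 beside 15.0 RPKM in SOX10 low replicate 3, so the pairs differ in direction.

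Hmga2 was 4.34, 5.27, 0.485, 11.7 and 8.42 RPKM in SOX10 high and 28.8, 8.83, 3.90 and 20.1 RPKM in SOX10 low libraries. The 2 highest values were SOX10 low replicates 1 and 4, and the lowest was SOX10 high replicate 3. The difference was -1.21 ± 0.66 on the log2 scale (SE, limma adjusted p = 1), and it was -0.82 without SOX10 low replicate 1 and -0.73 without SOX10 high replicate 3. Hmga1 was 1.57, 3.18, 3.75, 5.72 and 2.39 RPKM against 4.89, 1.82, 3.43 and 5.96 RPKM, with groups that overlapped.

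The maintenance genes were high in both groups. Uhrf1 was 72.1, 75.9, 60.6, 74.0 and 87.4 RPKM in SOX10 high and 44.2, 72.3, 70.7 and 75.0 RPKM in SOX10 low libraries. Hells was 58.1, 57.4, 29.2, 47.4 and 52.7 RPKM against 23.2, 61.8, 44.1 and 49.3 RPKM. The library with immune transcripts, SOX10 low replicate 1, was the lowest of the 9 for both genes. Without it the log2 difference of Uhrf1 was 0.02 in place of 0.19, and that of Hells was -0.10 in place of 0.17, with adjusted p = 1 in each case. Dnmt1 was 56.5, 104, 50.2, 60.6 and 60.0 RPKM against 50.0, 48.0, 99.5 and 60.6 RPKM. The 2 highest Dnmt1 values belonged to SOX10 high replicate 2 and SOX10 low replicate 3, which are 1 of the like pairs.

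Ezh2 showed the same pair at the top. It was 33.5, 63.1, 36.2, 29.3 and 51.6 RPKM in SOX10 high and 29.7, 33.9, 59.3 and 34.7 RPKM in SOX10 low libraries. The ratio of Ezh2 to Ezh1 ranged from 2.17 to 7.34 in SOX10 high and from 2.40 to 6.18 in SOX10 low libraries. Dnmt3a lay between 6.16 and 11.1 RPKM in all 9 libraries and Dnmt3b between 0.637 and 6.25 RPKM. The like pair of SOX10 high replicate 1 and SOX10 low replicate 2 held the 2 highest Dnmt3b values, 4.85 and 6.25 RPKM. Igf2bp3 stayed between 0.244 and 0.584 RPKM. The replication list had a mean level of 5.63 in SOX10 high and 5.51 in SOX10 low cells, with 0 of its 25 genes called, and relative to it Uhrf1 lay at 0.58 and 0.52 and Dnmt1 at 0.39 and 0.47. In the lists of DNA methylation, polycomb, heterochromatin and oncofetal genes limma called 0 genes, and at an unadjusted p under 0.05 the DNA methylation list had 1 of 18 and the others 0.

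**Figure D5:**
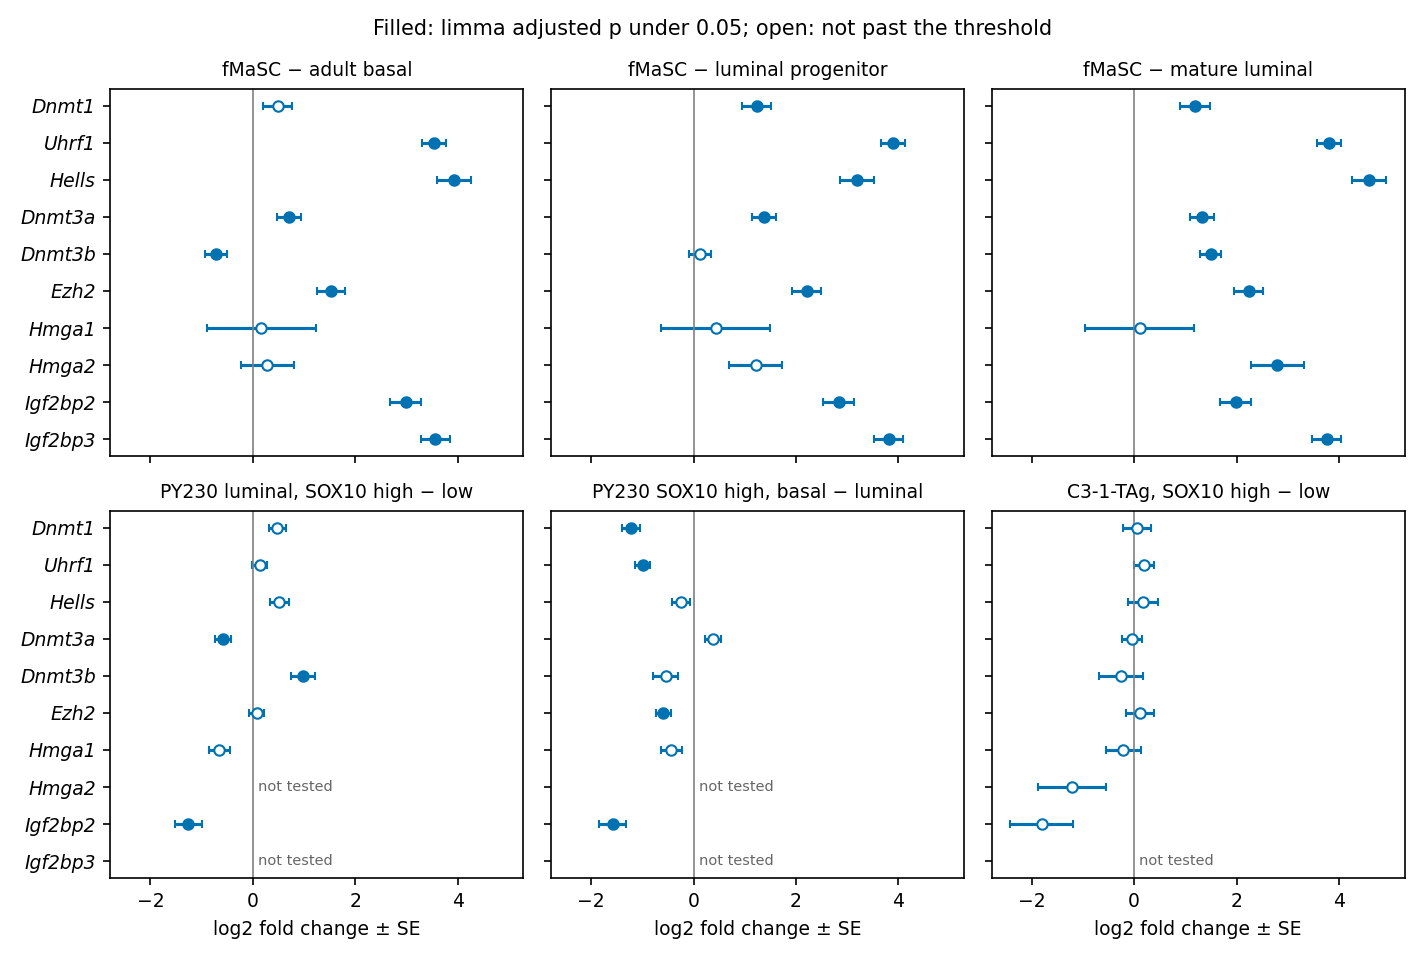
Log2 fold change (horizontal axis, log2(RPKM + 1) scale, ± SE from the limma fit) of each of the 10 genes (vertical axis) in 6 of the 10 comparisons, with filled points for adjusted p under 0.05. In the upper panels Uhrf1, Hells, Igf2bp2 and Igf2bp3 lie at 1.98 or more, in the lower ones Igf2bp2 lies below 0 each time and is open in C3-1-TAg.

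The genes most like each member were found by the mean of the Pearson correlations of log2(RPKM + 1) within the 3 tables (8, 6 and 9 libraries) over 10528 genes that passed the filter in all 3, as a description without a test, since the libraries of a table share groups. Uhrf1 was most like Kntc1 (mean r 0.957), a mitotic checkpoint gene, and Chaf1a (0.945), a chromatin assembly subunit. Ezh2 was most like Cdca3 (0.932), Espl1 (0.911), which encodes separase, and Mcm2 (0.903), a subunit of the replicative helicase. Hells was most like Cbx5 (0.923), which encodes heterochromatin protein HP1 alpha, Mms22l (0.911) and Ccne2 (0.890), a cyclin of replication entry. Dnmt1 was most like Lpar2 (0.921), Dnmt3b like Gtf3c4 (0.939) and Ncl (0.937), which encodes nucleolin, Dnmt3a like Gng10 (0.826), Igf2bp2 like Tex264 (0.897) and Pkm (0.892), a glycolytic enzyme gene, and Hmga1 like B3galt6 (0.863). Hmga2 and Igf2bp3 did not pass the filter in all tables. Reads were counted without strand, so those of Dnmt3a, Ezh2, Hmga2, Igf2bp3 and Dnmt1 cannot be told from those of overlapping genes such as Dnmt3aos.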

How the data were processed

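Per the labels' protocols, around 2000 sorted cells gave polyA RNA that was amplified by SmartSeq2 (18, then 10 PCR cycles) and read as single ends of 50 or 75 bases, with no strand or molecular identifiers. Per the submitters' processing notes, the authors used FastQC, HISAT2 2.0.5 and StringTie 1.3.1c with mm9, and deposited RPKM values. The annotation, the read depth and the surface markers of the sort were not given in the sources used here. RPKM above 0 in the C3-1-TAg table carried an added constant of 2, which was taken off. Symbols there that differed from the other tables only in capitals were respelled (2196 in all).

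With R 4.3.3 and limma 3.58.1, log2(RPKM + 1) was fitted over all groups of a table with trended variances and no replicate term, for genes at 1 RPKM in at least 2 libraries (4 in C3-1-TAg), and p-values were Benjamini-Hochberg adjusted over all genes tested. The procedure was tested on simulated data. Folds are ratios of mean RPKM. Alternatives were another pseudocount, no filter, quantile and median-of-ratios scaling, a replicate block, fewer groups in the fit, values as deposited, and each library left out. An alternative added after seeing the data is not reported here. The members and gene lists were chosen with earlier results of these data known. Named beside the members are up to 2 called genes with the highest and 2 with the lowest log2 difference of a list in a comparison, the 3 genes most like a member, and ratios within families. Promoter letters came from RefSeq (GRCm38.p6).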

Additional observations from a re-analysis of the deposited data

Results flagged for a closer look

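Of 20 combinations of a member and a C3-1-TAg group, which were the only groups of more than 3 libraries, 4 had 1 library far from the rest of its group by Dixon's limit on the gap over the range. Chance gives such a gap in about 1 in 20 groups, and 2 of the 4 are the same library. Dnmt1 was 104 RPKM in SOX10 high replicate 2. Ezh2 was 59.3 RPKM and Igf2bp3 0.443 RPKM in SOX10 low replicate 3, the library most like SOX10 high replicate 2. Uhrf1 was 44.2 RPKM in SOX10 low replicate 1, the library with immune transcripts.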

How the results depend on the processing

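Members called changed as follows against the counts in the report. With no filter on low values there was 1 for mature luminal cells against luminal progenitors, where 914 of all genes were higher and 1387 lower. There were 0 for PY230 luminal SOX10 high against low cells, where 1826 of all genes were called. With only the compared groups fitted there were 0 for basal cells against luminal progenitors (1373 of all genes), 1 for basal against mature luminal cells (3284) and 1 for PY230 luminal SOX10 high against low cells (1908). Quantile normalization gave 0 for basal cells against luminal progenitors. With 1 library left out at a time, member counts ran from 5 to 9, 6 to 7 and 8 to 9 for fMaSC against basal, luminal progenitor and mature luminal cells, from 0 to 7 and 2 to 7 for basal against luminal progenitor and mature luminal cells, and stood at 1 for the luminal groups. They ran from 3 to 6, 3 to 4 and 0 to 4 in the PY230 comparisons of basal with luminal SOX10 high, basal with luminal SOX10 low, and luminal SOX10 high with low cells, and stayed at 0 in C3-1-TAg. Calls over all genes then ran from 3847 to 4849 for fMaSC against luminal progenitors, 2529 to 6174 and 3650 to 7381 for basal against luminal progenitor and mature luminal cells, 954 to 1474 for the adult luminal groups, 3451 to 5552 for PY230 basal against luminal SOX10 high cells, 461 to 3838 for the PY230 luminal fractions and 0 to 11 in C3-1-TAg. Calls over all genes in C3-1-TAg were 2 with a pseudocount of 0.1, 0 with no filter and 11 with the values as deposited. Hmga1 ran from -1.71 to 2.03 for fMaSC against basal cells, from -1.60 to 2.14 for basal against luminal progenitor cells and from -1.92 to 1.82 for basal against mature luminal cells, past the threshold on both sides. For these changes the cause was not tested.

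Calls of single members were also lost for Dnmt3a (adjusted p = 0.0526 and 0.0535) and Dnmt3b (0.0582 and 0.0707) in fMaSC against basal cells with a pseudocount of 0.1 and with only those groups fitted. With only the compared groups fitted, Dnmt3b in basal against luminal progenitor cells (0.147), Hmga2 (0.0612) and Igf2bp2 (0.106) in basal against mature luminal cells, and Dnmt3a (0.0731) and Dnmt3b (0.0637) in the PY230 luminal fractions were lost. With no filter, Igf2bp2 in basal against mature luminal cells (0.0568) and Hells between the luminal groups (0.0545) were lost, and Dnmt3b in the PY230 luminal fractions was lost with quantile normalization (0.0701). Hmga2 was gained between the luminal groups (0.0368 with a pseudocount of 0.1, 0.0465 with only those groups) and for fMaSC against luminal progenitors (0.0124 with only those groups).

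Replicate numbers were not used as pairs. In the normal, PY230 and C3-1-TAg libraries, 4 of 12, 2 of 6 and 1 of 4 same-numbered pairs had a correlation of deviations over 0.1. Of differently numbered pairs from different groups, 0 of 12, 4 of 6 and 7 of 16 did. With 2 libraries per group the 2 deviations mirror each other, so in the normal and PY230 libraries these counts cannot settle pairing. With a replicate block, Dnmt3a in the PY230 luminal fractions was lost (-0.59, adjusted p = 0.0534), no other member call changed, and 0 genes were called in C3-1-TAg, where the block drops SOX10 high replicate 5. No read counts were used, so depth sets no limit that could be computed here.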
